A study of Mus musculus with 27 samples.

Results

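PWK/PhJ is an inbred mouse strain derived from wild mice of the subspecies Mus musculus musculus, and its hepatocytes were set here against those of every other strain of the study. The study surveyed the livers of 9 inbred strains for histone marks, DNA methylation and gene expression, to relate genetic differences between strains to these readouts. Only the DNA methylation is described here, which was read by reduced representation bisulfite sequencing (RRBS). The 3 PWK/PhJ samples were taken by their strain label out of 27 samples, and the other 24 came in sets of 3 from the wild-derived strains WSB/EiJ and CAST/EiJ and the laboratory strains C57BL/6J, NZO/HlLtJ, A/J, NOD/ShiLtJ, DBA/2J and 129S1/SvImJ. All 27 samples were hepatocytes of female mice aged 12 weeks, with no treatment named. CAST/EiJ and WSB/EiJ descend from wild mice of other subspecies.

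Methylation of cytosine in a CpG dinucleotide is copied at each cell division by maintenance enzymes. In most mouse tissues CpGs between and inside genes are largely methylated, while dense clusters of CpGs at gene starts, called CpG islands, are largely free of it. A methylated island at a gene start usually goes with a silent gene, whereas methylation inside a gene body has no such simple relation with transcription. RRBS cuts DNA at CCGG with the enzyme MspI and so reads mostly CpG-rich stretches. Bisulfite turns unmethylated cytosine into a base that is read as T, and a cytosine replaced by T in a strain's genome is read in the same way. A low value in PWK/PhJ from such a base and one from an unmethylated cytosine cannot be told apart in these files.

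Each file listed single positions with a percent methylation from 0 to 100, and 1692387 positions on the autosomes and the X chromosome were listed in all 27 samples. Between 2904787 and 3156965 positions were listed per sample, and the 3 PWK/PhJ samples lay inside that range. The read depth behind a value is unknown, so no counting interval is given. Nothing in the labels says whether the samples of a strain came from separate animals in separate preparations. Each p-value takes single samples and not strains as its units, and PWK/PhJ is a single strain. Of 21 marker genes of liver cell types, 5 had a start with values, so the labelled cell type could be checked only in small part. The starts of Hnf4a, a transcription factor of hepatocytes, averaged higher in PWK/PhJ, at 17.2% ± 3.35 and 11.04% ± 12.5 (SD, n = 3), against 6.79% and 4.06% in the other strains. At the first the PWK/PhJ samples ran from 14.4 to 20.9% and the others from 0.758 to 23.0%. At the second the PWK/PhJ samples ran from 3.77 to 25.4% and the others from 0.57 to 8.05%. Tie1, which marks endothelial cells, stood at 83.6% ± 12.1 in PWK/PhJ and 93.3% in the others. Krt7, a bile duct keratin, stood at 27.1% ± 1.77 against 23.9%, and Epcam, another bile duct marker, at 55.7% ± 7.82 against 51.6%. Lrat, which stores retinol in stellate cells, stood at 5.70% ± 0.474 against 2.79%, and the part of other cell types in the results below was not tested.

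The sequences of 5 gene starts show some of the letters that carry the PWK/PhJ difference. These starts were among the most distinct and had shared positions in the stretch before the start. The averages at gene starts given below also take in positions outside these stretches. The stretches hold 8 of the 41 positions averaged at Mvk, 4 of 87 at Sfrp2 and 11 of 42 at 2200002D01Rik. They hold 7 of 10 at Cit and 8 of 10 at Catsperd. Each is the 250 bases before the start, read 5′ to 3′ along the gene, from RefSeq on GRCm38.p6, and so in the reference (C57BL/6J) sequence. Capitals mark the single bases of CpGs at which all 3 PWK/PhJ samples were called higher than all 24 other samples. A capital C is a position on the strand shown, and a capital G one on the opposite strand. Mvk lies on the plus strand at chr5:114444019-114444268, Sfrp2 on the plus strand at chr3:83766071-83766320, and Cit on the plus strand at chr5:115845406-115845655. Catsperd lies on the plus strand at chr17:56627893-56628142, and 2200002D01Rik on the minus strand at chr7:29248468-29248717.
Mvk: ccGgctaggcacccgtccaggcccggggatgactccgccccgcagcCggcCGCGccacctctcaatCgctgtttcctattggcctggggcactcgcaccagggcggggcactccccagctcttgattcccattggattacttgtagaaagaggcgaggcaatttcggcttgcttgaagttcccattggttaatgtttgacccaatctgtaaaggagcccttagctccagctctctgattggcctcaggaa
Sfrp2: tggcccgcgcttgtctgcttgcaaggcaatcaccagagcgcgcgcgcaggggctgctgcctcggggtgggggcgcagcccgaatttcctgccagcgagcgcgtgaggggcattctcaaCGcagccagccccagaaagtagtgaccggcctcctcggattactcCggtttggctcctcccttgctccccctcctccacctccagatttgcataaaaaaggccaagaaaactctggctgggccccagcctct
Cit: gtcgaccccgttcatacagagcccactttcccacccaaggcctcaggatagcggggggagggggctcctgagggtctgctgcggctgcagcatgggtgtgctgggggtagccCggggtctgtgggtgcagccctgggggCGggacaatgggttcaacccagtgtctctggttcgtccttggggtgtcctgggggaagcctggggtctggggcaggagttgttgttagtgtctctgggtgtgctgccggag
Catsperd: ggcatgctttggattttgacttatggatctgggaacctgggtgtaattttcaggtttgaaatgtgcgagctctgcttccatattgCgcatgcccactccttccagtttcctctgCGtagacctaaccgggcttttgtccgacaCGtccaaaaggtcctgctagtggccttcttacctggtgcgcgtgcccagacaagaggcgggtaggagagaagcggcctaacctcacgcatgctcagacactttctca
2200002D01Rik: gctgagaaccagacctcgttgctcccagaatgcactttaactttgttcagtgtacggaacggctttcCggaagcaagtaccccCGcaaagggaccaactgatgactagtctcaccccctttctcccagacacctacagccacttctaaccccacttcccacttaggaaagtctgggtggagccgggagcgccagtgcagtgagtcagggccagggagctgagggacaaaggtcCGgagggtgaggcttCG

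In the Mvk stretch 8 positions were listed in all samples, of which 8 were called higher in PWK/PhJ and 7 set apart from every other sample. In the Sfrp2 stretch 4 of 4 shared positions were called and 3 set apart, and in the Cit stretch 6 of 7 were called and 3 set apart. In Catsperd 5 of 8 shared positions were called and 5 set apart, and in 2200002D01Rik 8 of 11 were called and 7 set apart. The CpGs left in lower case were for the most part not listed in all 27 samples. The Mvk stretch holds 13 CpGs and Sfrp2 holds 16, against a median of 6 over 32619 stretches of the same length before RefSeq gene starts. The MspI site CCGG, which reads the same on both strands, occurs in all 5 stretches and in 47.3% of the 32619.

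Across all shared positions, methylation was highest in PWK/PhJ. The PWK/PhJ samples stood at 28.5%, 28.6% and 28.5%, while the other 24 ran from 27.2 to 28.4%, so that the groups did not overlap. The mean was 28.5% ± 0.105 (SD, n = 3) against 27.7% ± 0.353 (SD, n = 24). The difference of 0.766 points had p = 0.00034188 in an exact two-sided permutation test over samples, the smallest p that the 2925 arrangements allow, and an adjusted p of 0.000547 over the 8 levels tested in this way. The next strain was A/J at 28.3%. The exact test, here and for the levels below, shuffles single samples and not strains, so its p does not measure the spread between strains. It shows that the PWK/PhJ samples were the highest, and the gap to A/J was small beside the range of the strains.

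The difference passed the test at positions with low or middle methylation in the other strains, and not at highly methylated ones. At the 1141483 positions under 20% in the other strains, PWK/PhJ stood at 2.33% ± 0.0658 against 1.69% ± 0.193, and at the 154530 positions from 20 to 80% at 57.8% ± 0.449 against 53.6% ± 1.91. Both differences had p = 0.00034188 in the exact permutation test over samples. At the 396374 positions over 80% PWK/PhJ stood at 92.5% ± 0.156 against 92.7% ± 0.339, with p = 0.335 in the same exact test. These classes were set on the other strains alone, which by itself can move the PWK/PhJ mean toward the middle; with classes set on all 27 samples the differences were 0.565, 4.09 and 0.0438 points. Within 500 bases of a gene start PWK/PhJ stood at 3.76% ± 0.0601 against 3.40% ± 0.152, with p = 0.00103 in the exact permutation test. More than 5000 bases from any start it stood at 54.1% ± 0.133 against 53.0% ± 0.512, with p = 0.00034188 in the exact test.

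On the X chromosome no difference in level passed the test. The 39017 X positions averaged 45.4% ± 0.507 in PWK/PhJ and 45.0% ± 1.20 in the other 24 samples, with p = 0.5997 in the exact permutation test, and PWK/PhJ ranked 4 of 9 strains. On the autosomes PWK/PhJ stood at 28.1% ± 0.0968 against 27.3% ± 0.361, with p = 0.00034188 in the exact test. Whether the autosomal and X differences differ from each other was not tested.

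**Figure D1:**
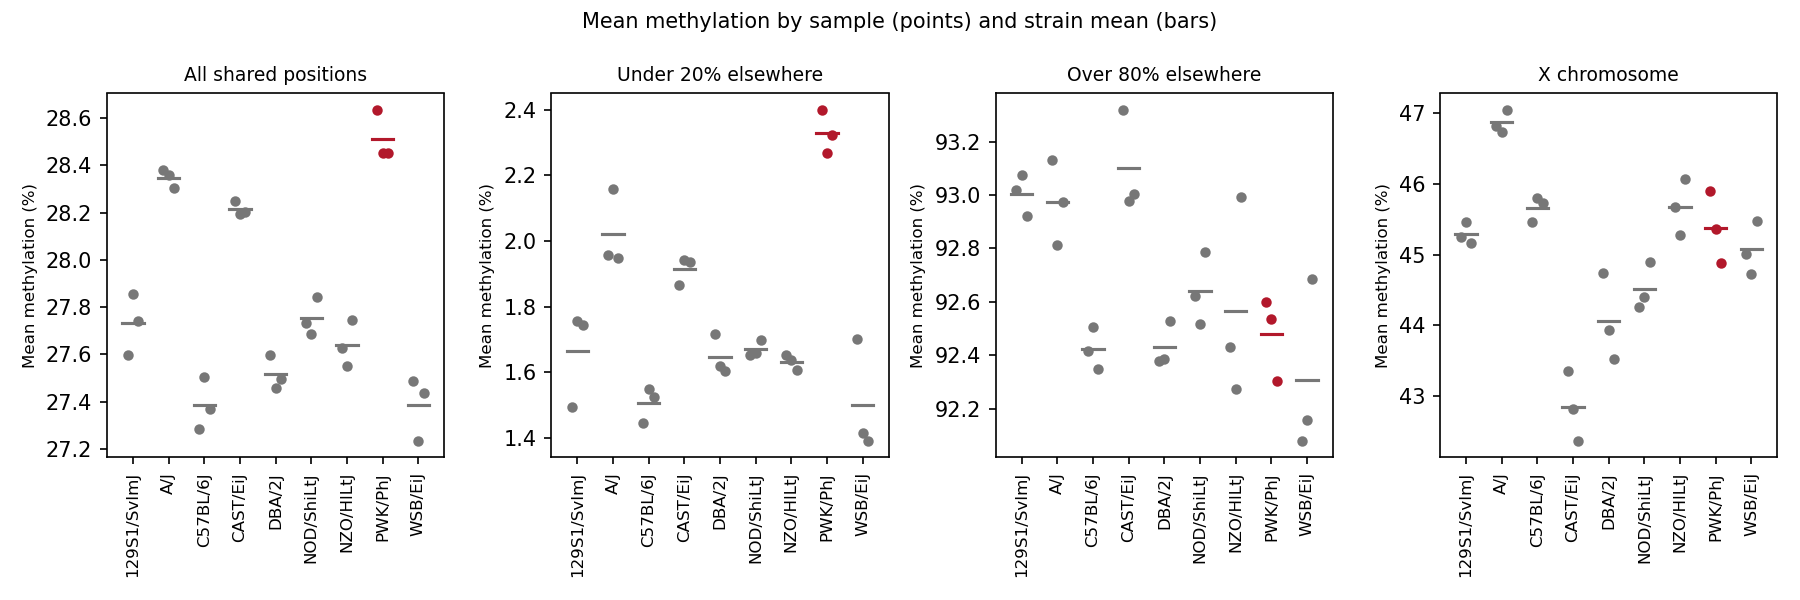
Mean methylation in percent (y axis, each panel with its own range, not starting at 0) for every sample as a point and every strain as a bar, over all shared positions, positions under 20% and over 80% in the other strains, and X positions. The 3 PWK/PhJ samples (red) are above all others in the panels of all shared positions and of positions under 20%, and among the others in the remaining panels.

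Averages over 1 kb tiles showed where PWK/PhJ departs. Of 63592 tiles with at least 5 shared positions, 45600 had a mean at least 2.5 points from either end of the percent scale and were tested. This mean was taken over all samples, PWK/PhJ included. A tile was called when its adjusted p in limma's moderated test was under 0.05 and the PWK/PhJ mean differed from the mean of the 8 other strain means by at least 25 points. This held for 717 tiles, 1.57% of those tested, with 486 higher in PWK/PhJ (1.07%) and 231 lower (0.507%). In 429 of them (0.941%) all 3 PWK/PhJ samples lay above, or all below, all 24 other samples, and these are called set apart below. Higher tiles made up 291 of the set-apart tiles (0.638% of those tested) and lower tiles 138 (0.303%). Groups that do not overlap, with any size of difference, were seen in 1608 tiles (3.53%). With at least 10 positions per tile 145 tiles were set apart, of which 78.6% were higher, against 67.8% higher among the 429. With at least 3 positions 728 were set apart, of which 63.1% were higher.

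The tile of Cacna1c, which encodes a calcium channel subunit, lay just inside the 25-point limit at 88.0% in PWK/PhJ and 63.0% elsewhere. The tile of Gm4799 lay just outside it at 76.1% and 51.1%. At single positions, 13697 of 704265 were called (1.94%), 9408 higher (1.34%) and 4289 lower (0.609%). Set apart were 5076 positions (0.721%), 3536 higher (0.502%) and 1540 lower (0.219%), while groups without overlap at any size of difference were seen at 0.962% of positions. The count of called positions was 8464 when the 24 others formed 1 group in limma and 8551 with an offset of 1 in the log ratio. Where a set-apart position had a shared neighbour on the other strand of its CpG, that neighbour was called in the same direction in 70.1% of 2617 higher and 70.0% of 854 lower pairs. Inside the set-apart tiles, 2210 of 3512 positions (62.9%) were called higher in the higher tiles, and 709 of 1167 (60.8%) were called lower in the lower tiles. Only 1 position in the higher tiles and 0 in the lower tiles were called in the opposite direction. These positions make up the tile means by which the tiles were chosen, so their direction follows in part from that choice.

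PWK/PhJ was among the most distinct strains by the same contrast applied to each strain in turn. CAST/EiJ had 418 set-apart tiles, 57.7% of them higher, and WSB/EiJ had 116. A/J had 69, 89.9% of them higher, and each of the remaining strains had 27 to 44. In PWK/PhJ 67.8% were higher. The difference between strains in these shares was not tested, and the strains serve as one another's comparison. Over the tested tiles the PWK/PhJ samples correlated with each other at r = 0.984 to 0.986 across tiles, which are not independent, and with samples of other strains at median r of 0.957 (C57BL/6J) to 0.963 (CAST/EiJ).

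Higher tiles had low to middle levels in the other strains, and lower tiles had middle to high ones. The median over the higher tiles was 28.7% in the other strains and 68.3% in PWK/PhJ, and over the lower tiles 78.4% and 37.6%. The other strains were under 20% in 106 of the 291 higher tiles (36.4%) and over 80% in 66 of the 138 lower tiles (47.8%), against 19.3% and 57.6% of all tested tiles. These levels follow in part from the 25-point rule and are given as a description. Most PWK/PhJ values were intermediate: 67.4% of higher and 75.4% of lower tiles stood between 20 and 80% in PWK/PhJ, against 22.4% of all tested tiles. The mean of the other strains also stood there in 63.6% of higher and 52.2% of lower tiles, against 23.1% of all tested tiles. A change from under 20% elsewhere to over 80% in PWK/PhJ was seen in 5 tiles, and the opposite change, from over 80% to under 20%, in 3. In DNA from many cells, partial methylation in every cell and full methylation in a share of cells or alleles cannot be told apart. The median SD between the PWK/PhJ samples was 4.00 points in higher and 4.20 in lower tiles, with highest values of 18.3 and 27.3, against a median of 2.40 over all tested tiles.

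**Figure D2:**
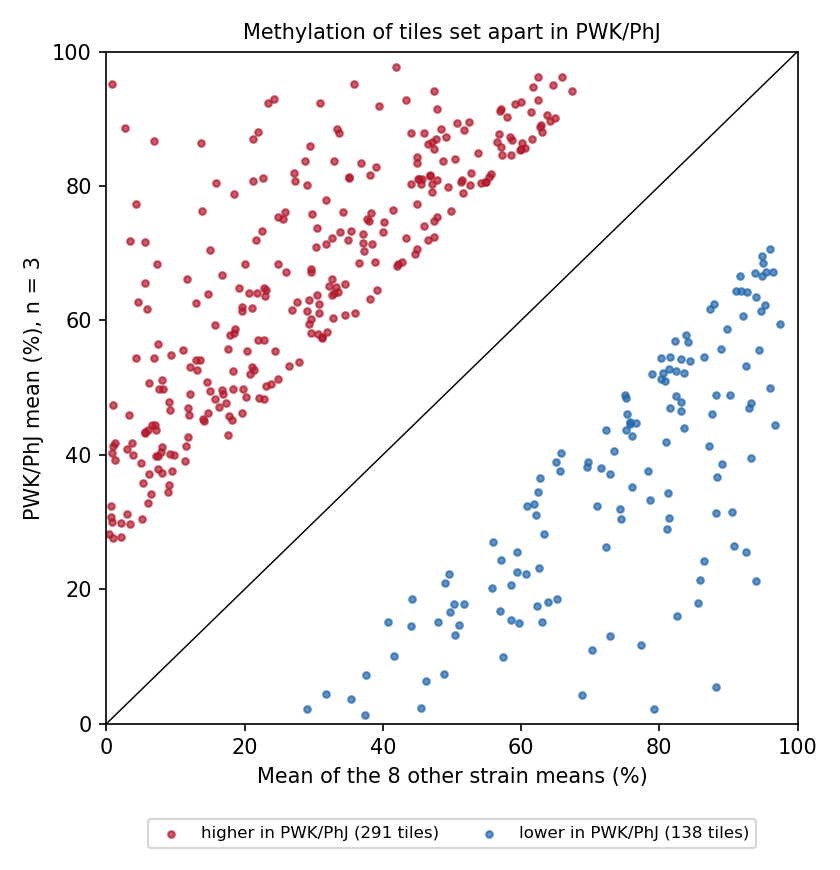
PWK/PhJ mean methylation (y axis, percent) against the mean of the 8 other strain means (x axis, percent) for the 429 set-apart tiles, with higher tiles in red, lower in blue and equality as a line. Most tiles stand at intermediate PWK/PhJ levels, and few run from one extreme to the other.

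Many of these tiles also varied among the other strains. Strain means of the other 8 spanned more than 25 points in 110 of the higher tiles (37.8%) and 40 of the lower (29.0%), against 6.90% of all tested tiles. The strain closest to PWK/PhJ was CAST/EiJ in 103 higher (35.4%) and 42 lower tiles (30.4%), and A/J in 59 higher tiles (20.3%) and 4 lower (2.90%). CAST/EiJ lay on the PWK/PhJ side of the midpoint between PWK/PhJ and the other strains' mean in 47 higher (16.2%) and 18 lower tiles (13.04%). Averaged over the higher tiles, CAST/EiJ stood at 34.7% and the other 7 strains at 26.9 to 32.2%, with PWK/PhJ at 66.5% ± 0.498. Averaged over the lower tiles, CAST/EiJ stood at 71.2% and PWK/PhJ at 36.3% ± 0.928. With CAST/EiJ left out, 615 tiles and 7380 positions were set apart.

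The position of the tiles relative to genes was recorded next. The middle was within 1000 bases of a RefSeq start in 17.5% of 280 higher tiles and 9.77% of 133 lower tiles, against 12.5% of 44358 tested tiles; gene starts on chromosome 18 were not analysed here. A protein-coding gene was overlapped by 65.6% of higher and 55.1% of lower tiles, against 67.3% of all tested tiles, and no gene at all by 26.1%, 38.4% and 24.2%. The differences between these shares were not tested. The 429 tiles touched 315 genes, of which 21 held 2 or more.

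By chromosome, chromosome 3 had the highest share of set-apart tiles, at 27 of 1711 (1.58%), with 16 higher and 11 lower. Chromosomes 9, 10 and 18 followed with 31 of 2388 (1.30%), 30 of 2319 (1.29%) and 16 of 1242 (1.29%). Chromosome 14 had the lowest, at 5 of 1531 (0.327%). Higher tiles outnumbered lower ones on every autosome except 4, with 11 higher and 13 lower, and 13, with 6 of each. On the X chromosome 8 of 1587 tiles (0.504%) were set apart, 4 in each direction, against 421 of 44013 (0.957%) on the autosomes. The megabase of chromosome 3 from 83000001 to 84000000 held 5 set-apart tiles among 23 tested, more than any other megabase, and 4 of these formed the stretch over Sfrp2 described next.

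**Figure D3:**
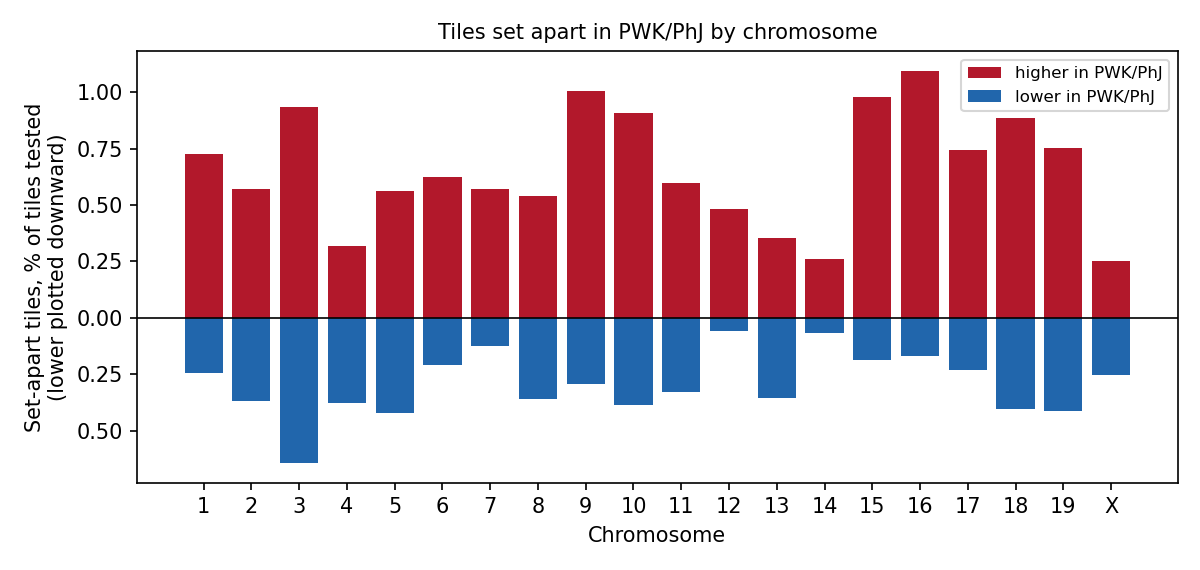
Set-apart tiles as a percentage of the tiles tested on each chromosome (y axis), with those higher in PWK/PhJ upward in red and those lower downward in blue. The total share is highest on chromosome 3 (1.58%) and lowest on chromosome 14 (0.327%), and the X chromosome has 4 tiles in each direction.

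The run with the most tiles lay over the CpG-rich start of Sfrp2, which encodes a secreted protein that binds Wnt ligands and modulates their signal, and whose start is often found methylated in tumours. On chromosome 3, from 83764001 to 83768000, 4 neighbouring tiles with 130 positions were all higher in PWK/PhJ, at 31.2 to 71.6%, while the means of the other strains were 1.24 to 5.52%. Averaged within 500 bases of the start (87 positions, chr3:83766321, plus strand), Sfrp2 stood at 39.0%, 38.3% and 42.3% in PWK/PhJ. In the other 24 samples the lowest was 1.01%, the median 2.22% and the highest 3.37%. The lowest PWK/PhJ sample lay 34.98 points above the highest of the others, and the log2 ratio differed by 3.32 ± 0.0805 (SE), with a limma adjusted p of 3.2e-18. The other strains averaged 2.15% at this start, so it passed the 2.5% filter only through PWK/PhJ.

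The level changed along this stretch. From -2495 to -1918 bases relative to the start PWK/PhJ averaged 33.2% over 18 positions and the other strains 5.31%. From -488 to -87 bases the averages were 43.4% and 1.90% over 23 positions, and in the first 241 bases of the gene 35.9% and 1.52% over 58 positions. From 448 to 709 bases inside the gene the averages were 68.6% and 7.54% over 32 positions, of which 26 were set apart. Further inside the gene, up to 2371 bases, 4 positions stood at 72.1% in PWK/PhJ and 58.4% in the others, and 0 of these were set apart. Single positions within these groups ran as low as 2.38% in PWK/PhJ, and means of other strains reached 56.1% at the position -2495 bases from the start and 47.2% at 462 bases, so the averages do not hold at every position.

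A second island was shared by Mvk and Mmab, which start back to back on chromosome 5. Mvk encodes mevalonate kinase, an early enzyme of cholesterol synthesis, and Mmab an adenosyltransferase that prepares vitamin B12 for propionate breakdown in mitochondria. Around the Mvk start (41 positions, chr5:114444269, plus strand) the PWK/PhJ samples stood at 47.0%, 45.0% and 47.9%. The other 24 samples had a lowest value of 0%, a median of 0.566% and a highest of 4.26%. The log2 ratio differed by 4.00 ± 0.0799 (SE), with a limma adjusted p of 1.79e-19. The Mmab start (34 positions, chr5:114444027, minus strand) overlaps it and gave 43.6%, 41.2% and 44.7% against at most 4.96%. Of the 14 positions at -276 to -183 bases from the Mvk start, shown in part in the sequence above, 11 were set apart, and of 27 from 8 to 478 bases after it 23 were. The 4 positions from 1164 to 1465 bases inside Mvk stood at 89.0% in PWK/PhJ and 95.4% in the others, with 0 set apart.

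**Figure D4:**
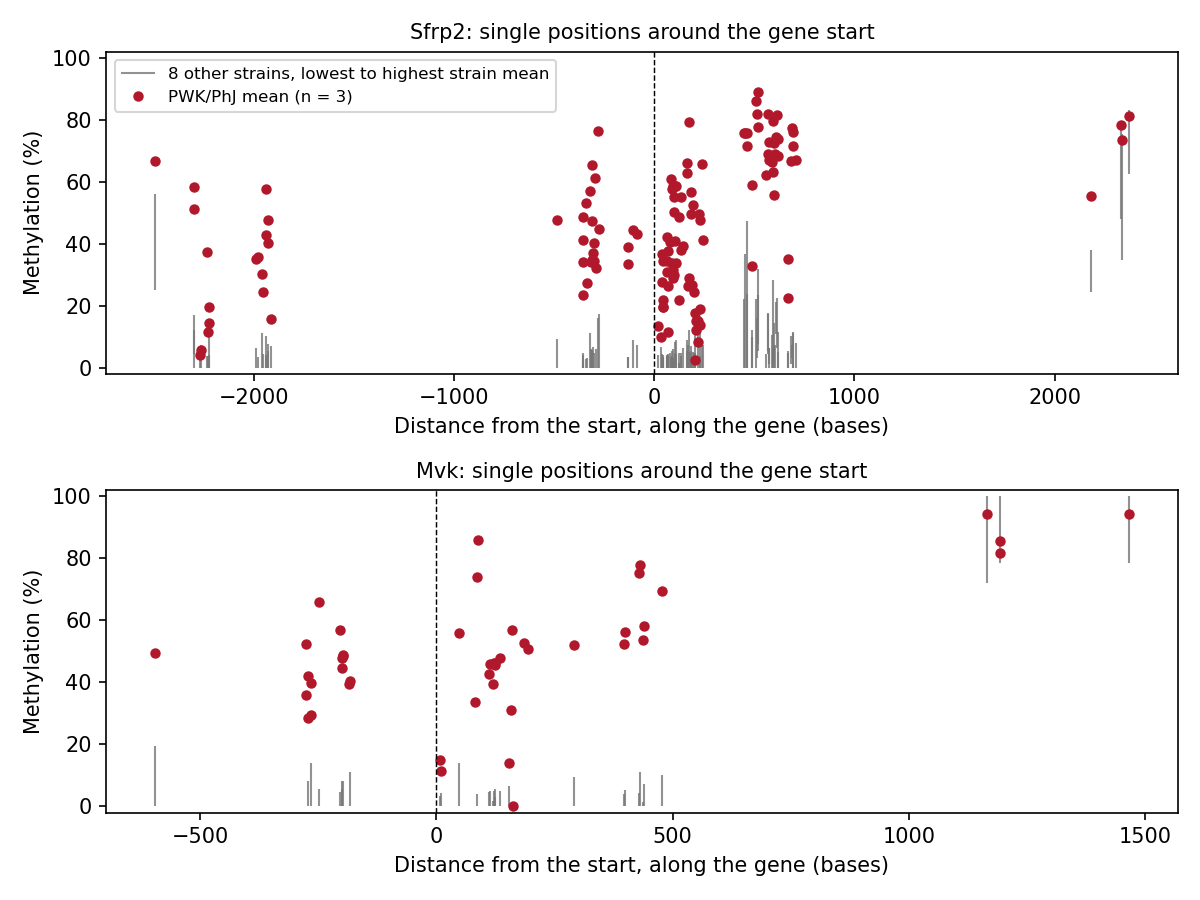
Methylation in percent (y axis) at single shared positions against distance from the gene start along the gene in bases (x axis) for Sfrp2 and Mvk. PWK/PhJ means (red points, n = 3) run between about the bottom and the top of the scale within the islands, while the ranges of the 8 other strain means (grey lines) stay low near the start and rise inside the gene.

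In all there were 16 runs of set-apart tiles within 10 kb of each other, and each run other than that of Sfrp2 held 2 tiles. The 2 lower tiles in Espn, which encodes an actin-bundling protein of hair cells and microvilli, held 88 positions at 22.3 and 31.0% in PWK/PhJ against 60.7 and 62.2%. Panx2, which encodes a channel-forming pannexin, had 2 higher tiles with 84 positions at 58.2 and 73.7% against 29.7 and 30.4%. Tns1, which encodes an actin-linked protein of focal adhesions, had 4 higher tiles in 2 runs, at 45.3 to 58.3% against 13.5 to 31.9%. In Fbf1, which encodes a protein of the ciliary base, 2 tiles across the start stood at 30.7 and 50.6% against 0.707 and 6.19%. Gldc, the glycine decarboxylase of liver mitochondria, had 1 higher tile, at 86.9% against 47.7%, and 1 lower, at 48.9% against 90.3%. Opposite calls a few kilobases apart were therefore seen within a gene.

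A run on chromosome 15 held a tile in Srebf2, which encodes the transcription factor that turns on cholesterol synthesis, and one in its neighbour Shisa8. The Srebf2 tile stood at 90.2%, 87.5% and 67.3% in PWK/PhJ, against 20.8 to 60.4% in the other 24 samples (limma adjusted p = 5.53e-07). The Shisa8 tile held 75 positions at 49.1% ± 1.60 in PWK/PhJ against 12.1%.

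Among tiles inside genes, the widest gap was in Tada2a, which encodes a subunit of histone acetyltransferase complexes. The tile (chr11:84115001-84116000, 6 positions, centred 14068 bases into the gene) stood at 85.4%, 91.7% and 88.9% in PWK/PhJ. The other 24 samples had a lowest of 0%, a median of 1.66% and a highest of 8.33%. Its log2 ratio differed by 6.35 ± 0.228 (SE), with a limma adjusted p of 9.65e-15, and 6 of 6 positions were set apart. The gap between the nearest samples of the groups was 77.1 points.

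Akain1, which encodes a small protein that interferes with the anchoring of protein kinase A, followed with 26 positions (chr17:69475001-69476000). The samples stood at 87.4%, 87.6% and 84.1% in PWK/PhJ and between 10.7 and 16.9% elsewhere, with 22 positions set apart (limma adjusted p = 2.94e-17). The other strain means differed little there, from 12.5 to 14.7%. In Lrsam1, which encodes a ubiquitin ligase, the tile (chr2:32929001-32930000) was near full methylation in PWK/PhJ at 96.5%, 95.7% and 93.1%, and ran from 21.3 to 51.6% in the others. In Bicc1, an RNA-binding protein gene, it stood at 81.8%, 83.5% and 78.3% (chr10:71025001-71026000). The other samples of Bicc1 were spread from 3.56 to 36.2%, with CAST/EiJ lowest at 5.50%.

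Sh3pxd2a, which encodes a scaffold of invadopodia, stood at 60.8%, 68.5% and 58.8% in PWK/PhJ and at most 10.5% elsewhere (chr19:47339001-47340000). Whamm, an activator of actin nucleation at membranes, stood at 61.4%, 61.0% and 74.3% and at most 14.4% elsewhere (chr7:81596001-81597000). Zfp811, a zinc finger gene, varied more among the PWK/PhJ samples, at 72.2%, 51.6% and 81.1% against at most 14.1% (chr17:32809001-32810000). Its lowest PWK/PhJ sample still lay 37.5 points above the highest other sample.

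A pair of these higher tiles lay at starts where other strains also departed from 0. At the start of Zfp971, a zinc finger gene (16 positions, chr2:178023284, plus strand), PWK/PhJ stood at 76.1%, 78.1% and 77.8%. The other samples had a median of 1.21% and a highest of 26.4%, the latter among the CAST/EiJ samples, which averaged 23.5%. The log2 ratio differed by 5.28 ± 0.155 (SE), with a limma adjusted p of 8.82e-17. At the start of the non-coding gene 4930471E19Rik (9 positions, chr10:120636107, minus strand) PWK/PhJ stood at 78.4%, 81.0% and 77.4%, and the others at 0 to 24.3%, with CAST/EiJ at 18.4%, 129S1/SvImJ at 15.2% and WSB/EiJ at 13.3%.

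**Figure D5:**
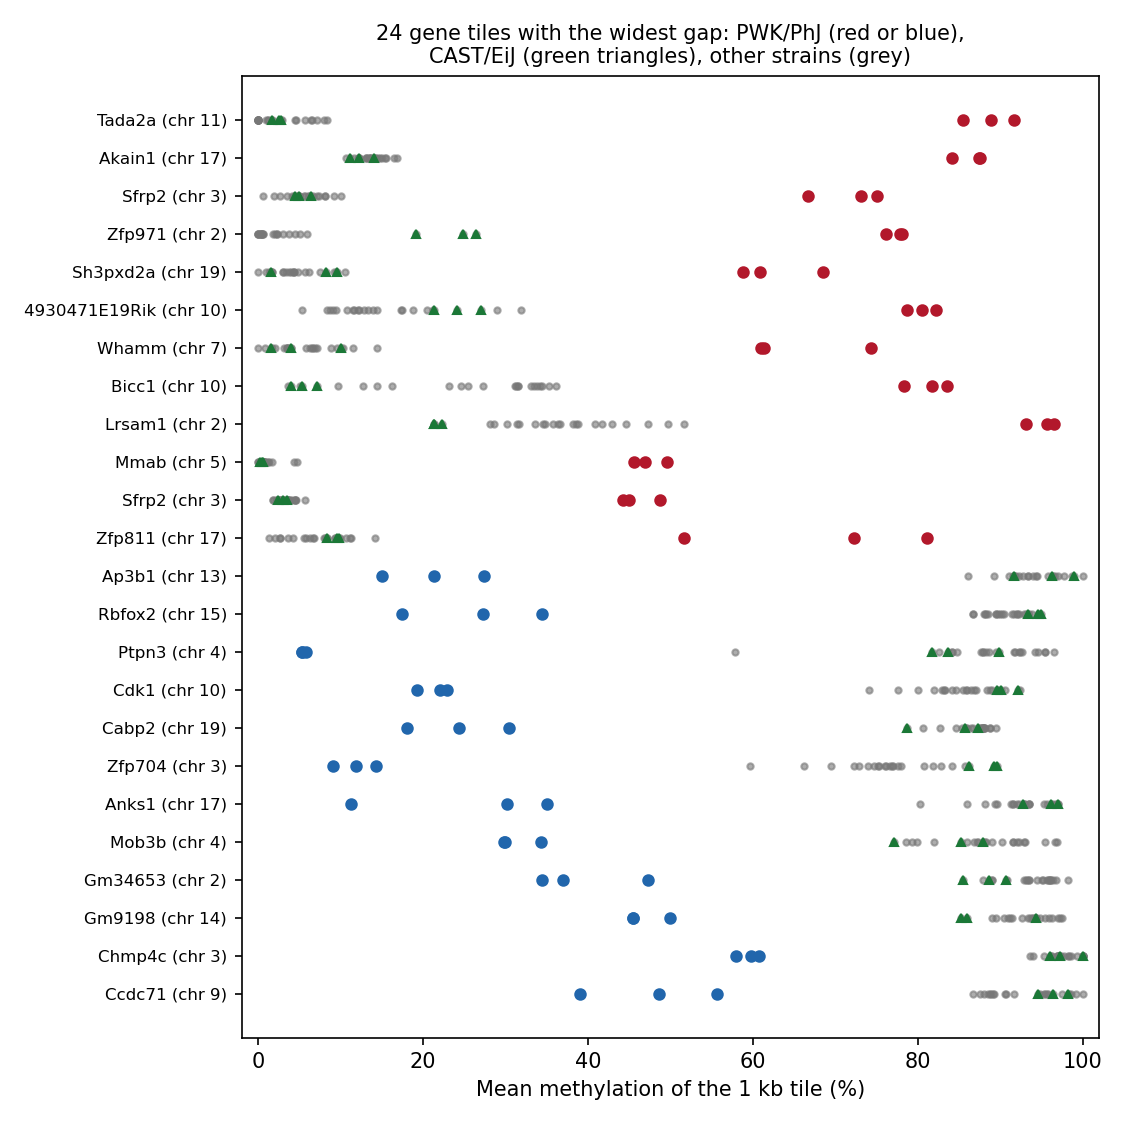
Mean methylation in percent (x axis) of the 24 gene-overlapping tiles with the widest gap between PWK/PhJ and the other samples, 12 higher (red) and 12 lower (blue), with 1 point per sample. CAST/EiJ samples are green triangles and the other strains grey, and no grey or green point lies between the PWK/PhJ points and the nearest edge of the scale on their side.

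The lower tiles inside genes were led by Ap3b1, which encodes a subunit of the adaptor complex that sorts cargo to lysosome-related organelles. The tile (chr13:94470001-94471000) stood at 15.05%, 21.3% and 27.4% in PWK/PhJ, and at a lowest of 86.0% and a median of 93.7% in the other samples. Its log2 ratio differed by -4.94 ± 0.266 (SE), with a limma adjusted p of 7.52e-12. In Ptpn3, a tyrosine phosphatase gene, PWK/PhJ was nearly unmethylated at 5.34%, 5.78% and 5.26% (chr4:57268001-57269000). The other samples of Ptpn3 ran from 57.8 to 96.5% with a median of 89.0% (limma adjusted p = 1.48e-10). Such a change from high to nearly absent was rare among the lower tiles.

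Rbfox2, which encodes a splicing factor, stood at 17.5%, 34.5% and 27.3% in PWK/PhJ and at 86.7 to 94.9% elsewhere (chr15:77079001-77080000). In Cdk1, the kinase that drives entry into mitosis, the tile (chr10:69335001-69336000) stood at 22.1%, 19.2% and 22.9% against 74.0 to 92.4%. Cabp2, a calcium-binding protein gene of photoreceptors and hair cells, stood at 24.4%, 17.995% and 30.4% against 78.7 to 89.5% (chr19:4085001-4086000). In each of these 3 tiles every shared position was set apart. Zfp704 stood at 11.8%, 9.13% and 14.3% against 59.7 to 89.6%, with CAST/EiJ the highest strain at 88.3% (chr3:9446001-9447000). Anks1 stood at 35.0%, 30.1% and 11.3% against 80.2 to 97.0%, and there the PWK/PhJ samples themselves were spread. Gm34653 had 11 of 11 positions set apart, at 34.5%, 36.9% and 47.2% against 85.5 to 98.3%.

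In a few lower tiles the mean hid a split between positions. In Chmp4c, which encodes a subunit of the membrane-cutting ESCRT machinery, PWK/PhJ stood at 58.0%, 59.8% and 60.7% against 93.6 to 100%. Of its 5 positions 2 were called, at 0 and 5.15% in PWK/PhJ, and the other 3 stood at 93.8 to 100%. In the tile at chr6:31978001-31979000, which overlaps no gene, all 3 PWK/PhJ samples stood at 50%, because 3 positions read 0% and 3 read 100%. In Mob3b 4 of 5 positions were called, at 8.97 to 41.4% in PWK/PhJ, and the remaining one stood at 84.5%. In Ccdc71 7 of 8 were called, at 27.5 to 53.1%, and the remaining one stood at 96.1%. The pseudogene Gm9198 showed no such split, with 7 of 8 positions called and all 8 between 24.97 and 73.4%. At least 1 position at or under 10% together with at least 1 at or over 80% in PWK/PhJ was seen in 30 lower tiles (21.7%), 24 higher tiles (8.25%) and 4.96% of all tested tiles.

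Positions read as 0% in all 3 PWK/PhJ samples while the other strains averaged over 50% numbered 198 of the 486254 shared positions with such an average. The same count for CAST/EiJ against its own other strains was 202 of 486613, and for the remaining strains between 21 and 89. In PWK/PhJ 129 of these were among the 1540 set-apart lower positions (8.38%). At least 1 of the 198 positions lay in 16 of the 138 lower tiles (11.6%), against 81 of all 45600 tested tiles (0.178%), and 6 of the 16 were still at least 25 points lower without them. In the other direction, 50 of the 3536 set-apart higher positions read 100% in all 3 PWK/PhJ samples while the other strains averaged under 50%. At these 129 positions a base change in PWK/PhJ and an unmethylated cytosine cannot be told apart.

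The tile set apart by the widest gap of all overlapped no gene. At chr17:32100001-32101000, which lies 19820 bases from Notch3, PWK/PhJ stood at 95.5%, 94.3% and 95.7% and the other samples at a lowest of 0.159%, a median of 0.657% and a highest of 1.89%. The log2 ratio differed by 7.53 ± 0.111 (SE), with a limma adjusted p of 3.87e-22, and 21 of 21 positions were set apart, at 83.3 to 100% in PWK/PhJ. The difference of 94.4 points ran from 65.1 to 94.8 points under 46 alternative settings, and the call was kept in all 46. The tile at chr12:100733001-100734000, 7673 bases from Rps6ka5, stood at 86.0%, 87.8% and 86.2% against at most 17.6%. At chr6:54720001-54721000, 16146 bases from Mturn, PWK/PhJ stood at 79.5%, 71.2% and 65.0% against at most 7.04%, and at chr1:59247001-59248000, 8861 bases from Cdk15, at 91.9%, 80.4% and 88.5% against 13.4 to 26.8%. Among lower tiles without a gene, chr1:136741001-136742000, 100562 bases from Nr5a2, stood at 27.4%, 31.5% and 35.4% against 82.0 to 96.6%. Of its 14 positions 10 were called, at 3.17 to 41.7% in PWK/PhJ, and the uncalled ones stood at 54.7 to 86.3%. At chr8:46252001-46253000 PWK/PhJ stood at 10.3%, 10.3% and 12.4% against 54.0 to 87.4%. At chr8:95310001-95311000, 569 bases from Tepp, it stood at 0%, 7.22% and 5.69% against 38.5 to 100%.

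Gene starts were then compared directly, by averaging shared positions within 500 bases of each RefSeq start. Of 14713 starts with at least 5 positions (12572 genes), 11034 had a mean under 2.5% and 3673 were tested. Called were 58 starts (1.58%), 48 higher (1.31%) and 10 lower (0.272%). Set apart were 44 starts of 41 genes (1.20% of starts), 39 higher (1.06%) and 5 lower (0.136%). Of the called starts 82.8% were higher in PWK/PhJ, against 67.8% of the called tiles, and the difference between these shares was not tested. The mean used by the filter includes the PWK/PhJ samples. Without the filter 82.8% of 58 called starts and 67.7% of 716 called tiles were higher. With it, starts near 0% elsewhere, such as Mvk at 0.848%, Mmab at 0.816% and Sfrp2 at 2.15%, were tested only because PWK/PhJ was high. They could not be called lower. Only 6 starts were left out at the upper limit.

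Beyond Sfrp2, Mvk, Mmab, Zfp971 and 4930471E19Rik, the higher starts with the widest gaps were of varied function. The start of 2200002D01Rik (42 positions, chr7:29248467, minus strand) stood at 51.9%, 52.1% and 45.3% in PWK/PhJ and at 1.78 to 17.0% in the other samples. Catsperd, which encodes a subunit of the sperm calcium channel CatSper, stood at 59.4%, 63.8% and 62.9% (10 positions, chr17:56628143, plus strand). Its other samples ran from 3.75 to 32.6% with a median of 19.4%, and limma's adjusted p was 1.58e-05. Cit, which encodes citron kinase of the dividing cell's midbody, stood at 42.1%, 49.4% and 38.5% against 1.82 to 13.2% (10 positions, chr5:115845656, plus strand). Cit also held 2 lower tiles inside the gene, at 16.1% ± 6.96 against 82.6% and at 54.6% ± 4.29 against 86.5%.

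LOC115490142, which overlaps Ncf1, stood at 40.4%, 43.8% and 46.9% against 2.45 to 15.7%. The Fbf1 start (40 positions) stood at 32.4%, 45.4% and 33.8% against 0.228 to 8.17%, and CAST/EiJ was the highest of the other strains at 7.95%. Pla2r1, which encodes a receptor for secreted phospholipase A2, stood at 46.8%, 55.3% and 53.5% against 3.78 to 23.5%. Nr2c2ap, which encodes a partner of the nuclear receptor TR4, stood at 24.1%, 26.0% and 27.7% against 0.133 to 2.93%. The Nr2c2ap difference of 25.2 points was just above the limit, and it was 24.3 without PWK/PhJ replicate 3, 24.01 within 1000 bases of the start and 24.7 over positions listed in at least 2 of 3 samples of every strain, each without a call.

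The 5 lower starts belonged to 4 genes. Ipcef1, which encodes a partner of cytohesins, the exchange factors of Arf GTPases, had 2 overlapping starts on chromosome 10, of which the first (14 positions) stood at 33.5%, 34.9% and 34.8% against 55.2 to 75.4%. The other stood at 25.3%, 23.9% and 26.97% against 43.7 to 72.1%. Rnf212, which encodes a factor of meiotic crossing over, stood at 30.6%, 30.7% and 38.5% against 45.6 to 96.3% (6 positions, limma adjusted p = 9.8e-05). The Rnf212 difference of -45.4 points was -28.2 points over positions listed in at least 2 of 3 samples of every strain. Gm32352 stood at 16.3%, 11.2% and 17.9% against 21.5 to 50.7%, and Sgk1, a kinase of ion transport that hormones induce, at 43.4%, 27.7% and 38.5% against 45.8 to 77.8%. Gm32352 and Sgk1 were close to the limit: without PWK/PhJ replicate 2 their differences were -23.6 and -21.8 points and the calls were lost. The Gm32352 call was also lost without 129S1/SvImJ (-24.96 points), A/J (-24.8), NOD/ShiLtJ (-24.7) or NZO/HlLtJ (-24.3), and the Sgk1 call without A/J (-24.7). Counting positions up to 1000 bases from the start gave -22.3 points at Gm32352, and positions listed in at least 2 of 3 samples of every strain gave -18.7 points, both without a call.

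Lists of liver and control genes ranged in their share of called tiles from 0% to 4.81%, against 1.57% of all tiles. Of 18 such lists, 12 had 0 tiles called with limma, and of 15 lists with a tested start 13 had 0 called starts. At hepatocyte transcription factors 1 of 66 tiles was called (1.52%), and at hepatocyte markers 0 of 24 (11 at an unadjusted p under 0.05 in limma), with median differences of 1.62 and 3.82 points against 0.856 over all tiles. The called tile was in Ppara, the receptor that switches on fatty acid breakdown in the fasting liver, at 6.67%, 23.3% and 15.1% in PWK/PhJ against 42.7 to 75.5% (chr15:85791001-85792000, limma adjusted p = 4.04e-09). It held 6 positions.

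In glucose and lipid metabolism 5 of 104 tiles were called (4.81%, against 1.57% of all tiles), 4 higher and 1 lower, among them the set-apart Srebf2 tile given above and a set-apart lower tile in Elovl6, which lengthens fatty acids. The Elovl6 tile stood at 66.5%, 73.6% and 61.3% against 90.2 to 98.8%. Mvk, which is not on this list, and Srebf2 both belong to the cholesterol pathway. Each was higher in PWK/PhJ, the first at its start and the other elsewhere in its gene. They were put together after their values were seen, and no test of the pathway was made. Starts of the list gave 0 calls among 4 tested, with a median difference of 3.88 points against 0.993 over all starts.

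Among conjugation enzymes and transporters 4 of 141 tiles (2.84%, against 1.57% of all tiles) and 1 of 11 starts (against 1.58% of all starts) were called. The start was that of Gstm3, a glutathione transferase, at 60%, 60% and 54.2% in PWK/PhJ against 0 to 35.0% (5 positions, limma adjusted p = 0.000646). Sult6b2, a sulfotransferase gene, had a higher tile at 78.5%, 79.8% and 85.1% against 26.0 to 74.5%. Abcc12, a transporter gene, had a lower tile at 25%, 20.8% and 21.2% against 30.3 to 65.5%. Of the cytochrome P450 genes, 1 of 74 tiles (1.35%, near the share over all tiles) and 0 of 8 starts were called. At an unadjusted p under 0.05 in limma stood 4 of the 8 starts, against 1398 of 3673 over all starts. The start of Cyp1a1, which oxidises dioxin-like compounds, missed the 25-point limit at 21.2%, 26.1% and 22.7% against 31.7 to 57.6%, without overlap (limma adjusted p = 1.16e-06). Cyp4f39 stood at 38.5%, 36.8% and 40.1% against 15.5 to 24.5%, also without overlap and under the limit (limma adjusted p = 8.7e-10).

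Zinc finger genes, which in mice lie in fast-changing clusters and often bind transposable elements, gave 10 of 506 tiles (1.98%, against 1.57% of all tiles) and 2 of 33 starts, where 58 of all 3673 starts (1.58%) were called. The second start, besides Zfp971, was that of Zfp974 (13 positions), at 27.7%, 23.5% and 31.9% against 0 to 5.66%. Zscan5b and Zfp558 had lower tiles, at 55.6% ± 5.604 against 94.4% and at 66.6% ± 5.40 against 94.9%. The start of Zfp180 was not called, at 2.95%, 0.384% and 0.347% against a strain average of 24.9%, with samples of other strains as low as 0.

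The lists of imprinted, germline and Hox genes had no call. With 1.57% of all tiles and 1.58% of all starts called, this says little for lists of this size. In limma's test, imprinted genes had 0 of 140 tiles and 0 of 27 starts called, with 20 tiles and 6 starts at an unadjusted p under 0.05. The listed germline genes that methylation silences in somatic cells had 0 of 67 tiles and 0 of 28 starts called, with 23 and 7 at that unadjusted p. Genes of meiosis or sperm outside that list, namely Dmc1, Iho1, Rnf212 and Catsperd, had set-apart starts, so its count does not cover all germline genes. Hox genes had 0 of 137 tiles and 0 of 19 starts called, with 42 and 8 at that unadjusted p. Over all tiles 12210 of 45600 stood at an unadjusted p under 0.05, and over all starts 1398 of 3673. Small tile differences were thus common over all tiles and in the germline and Hox lists, and less common at imprinted genes (20 of 140). The 25-point limit set the calls. Median differences at their tested starts were -0.0464, 0.934 and 1.07 points. Among imprinted genes Nap1l5 stood at 56.4%, 58.2% and 50.7% against a mean of 72.5%, within the range of the others, of which WSB/EiJ averaged 56.1%. Commd1 stood at 13.7%, 15.5% and 14.3% against 0 to 13.5%, and its 12.3 points were under the limit (limma adjusted p = 9.48e-14). CAST/EiJ stood nearly as high at Commd1, at 13.1%, while each remaining strain was at or under 1.37%. DNA methylation writers and erasers had 0 of 42 tiles called (9 at an unadjusted p under 0.05 in limma), and Uhrf1, which guides the maintenance enzyme, stood at 4.70% ± 0.993 against 2.74%. Of the 2 major histocompatibility starts tested 0 were called, though H2-Q10, a liver-expressed class I gene, stood at 11.1%, 21.1% and 14.5% against 0.0597 to 6.68% (limma adjusted p = 4.6e-11). Tiles of the markers of other liver cells were not called either: 0 of 15 for Kupffer and other blood cells, 0 of 39 for endothelium and 0 of 30 for bile duct and stellate cells, with 6, 13 and 8 at an unadjusted p under 0.05 in limma. The remaining lists gave 0 calls among 47 tiles of olfactory and vomeronasal receptor genes, 17 of serpin genes, 40 of circadian clock genes and 8 of histocompatibility genes, with 11, 3, 5 and 2 at that unadjusted p, and 1 call among 63 tiles of clustered protocadherin genes.

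On the X chromosome the set-apart higher tile with a gene start was that of Elk1, a transcription factor downstream of growth signals, at 47.1%, 45.1% and 63.9% against 13.4 to 29.1%. Prickle3 had a lower tile at 56.7%, 61.1% and 67.1% against 67.4 to 95.6%, with the groups nearly touching. The others were a higher tile in Gm39546, at 85.6% ± 2.33 against 60.6%, and 5 tiles outside genes.

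PWK/PhJ also differed in which positions were listed. Of 1800988 positions listed in all 24 other samples, 70708 (3.93%) were listed in none of the PWK/PhJ samples, from 2.23% on chromosome 14 to 6.67% on the X chromosome. The share was 4.89% in the set-apart higher tiles and 6.84% in the lower, against 2.28% in all tested tiles. Conversely, 90571 positions appeared in PWK/PhJ samples only. In the stretches before gene starts, where the reference letters could be read, 3876 of 3876 positions missing from PWK/PhJ fell on a reference CpG. Of 2727 positions listed in PWK/PhJ only, 1455 (53.4%) did, and of 241842 shared positions 99.998%. The part of these listing differences in the tile calls was not tested, and strain genomes were not used here.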

How the data were processed

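The authors deposited 1 file per sample with a percent methylation for each listed position, per the file headers; no counts or coverage are given, so the depth is unknown. The submitters' processing notes name Trim Galore 0.6.3, Bowtie2, Bismark 0.22 and the builds GRCm38 and mm10, with no role or order; any coverage filter was not given in the sources used here. Listed positions were matched to RefSeq starts and the 250 bases before them on GRCm38.p6, and 99.998% of shared positions there fell on a CpG. The gene table gives spans, so exons and introns were not distinguished.

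Samples were grouped by the strain label. Positions listed in all 27 samples, means of 1 kb tiles and means within 500 bases of a gene start (5 or more positions, mean over all samples at least 2.5 points from 0 and from 100%) were transformed to log2((percent + 5)/(100 - percent + 5)). Strain was a factor without a block, and PWK/PhJ was contrasted with the mean of the 8 other strain means. The moderated test of limma was rebuilt with pandas 2.3.3, scipy 1.17.1 and numpy 2.4.6 under Python 3.11.15, tested on simulated data, and checked against limma 3.58.1 in R 4.3.3: 717 tiles were called by both and 0 fell on different sides. P-values were adjusted by Benjamini-Hochberg over all features tested. The design had foreseen a count model had the files held counts. Single values per sample were compared by an exact two-sided permutation test. The Y and mitochondrial chromosomes were left out of tests. Figures used matplotlib 3.10.9.

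Named features are the 12 set-apart tiles per direction in genes and the 4 outside genes with the widest gap, the runs of tiles, the 12 set-apart starts per direction with the widest gap, and set-apart starts of listed genes; values of other genes were chosen after they were seen, and 1 result is not reported here. The members and lists were chosen with earlier results of these data known. Alternatives varied the offset, transform, filters, tile size, minimum difference, samples and strains, and the replicate block.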

Additional observations from a re-analysis of the deposited data

Results flagged for a closer look

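The files of these female samples also list Y chromosome positions, most of all those of PWK/PhJ, and no comparison above uses them. PWK/PhJ replicate 1 listed 1555 Y positions, replicate 2 listed 1686 and replicate 3 listed 1617. The other 24 samples listed 790 to 1442, with a median of 1142, and the groups did not overlap (exact two-sided permutation test over samples, p = 0.00034188, the smallest the arrangements allow). Over all positions listed the same exact test gave p = 0.685, and this test shuffles single samples and not strains.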

How the results depend on the processing

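Of 2497 values recomputed under alternatives, 2449 kept their direction and call, or stayed within 1.5 times the count given, 33 lost a call at a named feature, 15 moved further and 0 called values changed sign. A minimum difference of 10 points gave 3619 called and 1150 set-apart tiles and 276 called starts; 50 points gave 81 and 61 tiles, 3120 called and 1782 set-apart positions (58.5% and 58.6% higher) and 3 starts. With 3 positions per tile 1337 tiles were called and 728 set apart, with 10 positions 208 and 145. Called positions were 8551 with an offset of 1 and 8464 with the 24 others as 1 group. With classes set on all samples, an alternative added after the data were seen, the difference at highly methylated positions, which did not pass the test, changed sign from -0.201 to 0.0438 points. Leaving out each sample in turn gave 712 to 756 called and 426 to 483 set-apart tiles, 9616 to 13906 called and 5089 to 5706 set-apart positions, 56 to 61 starts and a mean level difference of 0.705 to 0.796 points. Losses of a call other than at 50 points came in 12 values of 3 starts, Gm32352, Nr2c2ap and Sgk1. Same-numbered samples of different strains correlated weakly, with 0 of 76 pairs over 0.1. Their median was 0.00458, against -0.00147 over 248 pairs with different numbers. Of 27 samples 13 correlated best with a sample of their own number, and whether a weak effect of the number is present was not tested. With the replicate block 717 tiles were called and 429 set apart, 12278 and 4926 positions, and 59 starts. Unknown depth limits all single-position values, and 1 strain cannot stand for its subspecies.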

Other observations

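Some starts outside the rule for naming genes were set apart in PWK/PhJ and are given here, chosen after their values were seen, out of the 44 set-apart starts (1.20% of those tested). Dmc1, the recombinase of meiotic recombination, stood at 61.2%, 36.7% and 54.5% against 4.53 to 22.8% in the other samples. Iho1, which acts in meiotic double-strand break formation, stood at 97.2%, 92.6% and 93.3% against 43.6 to 90.01%, and there CAST/EiJ was nearly as high at 87.6%, while the remaining strains averaged 45.5 to 60.7%. Calml4, a calmodulin-like gene, stood at 68.4%, 66.9% and 71.7%, with CAST/EiJ next at 45.6% and the remaining strains at 16.0 to 22.3%. Apoa4, an apolipoprotein gene, stood at 77.4%, 81.1% and 81.0% against 33.5 to 68.5%. Nfe2l1, a transcription factor gene of the proteasome response, had 3 overlapping starts set apart, the first at 45.0%, 54.8% and 36.0% against 0 to 26.4%, with A/J the next strain at 22.8%.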
